A study of Mus musculus with 27 samples.

Results

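Ddx4, Tdrd1, Mael, Tex19.1, Sycp2, Sycp3, Dazl and Rpl10l are genes of the germ line and of meiosis, and their CpG methylation was followed here in C2C12 myotubes, cultured muscle cells that hold no germ cells. These 8 genes were named with earlier results of the same data known. For each, every measured position from 5000 bp before the gene start to 1000 bp past the gene end was taken. All 8 had a measured start, out of 10480 genes whose start was measured. DNA methylation was measured by reduced representation bisulfite sequencing, in which bisulfite leaves methylated cytosines unchanged and a restriction digest limits the reads to CpG-rich fragments. C2C12, an immortal subcloned line of mouse muscle precursor cells, was grown in fetal bovine serum, differentiated in 2% horse serum, both with penicillin-streptomycin, and given a 2 h shock of 50% horse serum. The 9 groups are cells 12, 18, 24, 30, 36, 42, 48, 54 and 60 h after that shock, with 3 replicate libraries each and 27 libraries in all. Line and serum treatment were shared by all groups, and cells without the shock were not analysed here.

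Germ line genes are kept off in body tissues, and many of them carry methylated CpG-rich promoters there, a mark placed in the early embryo and erased in primordial germ cells. Ddx4 (an RNA helicase, also called Vasa), Tdrd1 (a Tudor domain protein) and Mael (maelstrom) act with piRNAs to silence transposons in male germ cells, and Tex19.1 restrains transposons in germ cells and placenta. Sycp2 and Sycp3 build the axes along which meiotic chromosomes pair. Dazl is an RNA-binding protein that promotes translation in germ cells. Rpl10l is an intronless autosomal copy of the X-linked ribosomal protein gene Rpl10 and serves in male meiosis, when the X chromosome is silent.

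The RefSeq promoters of the 5 members with measured CpGs there are given below (build GRCm38.p6, the assembly of mm10). Each runs 5′ to 3′ along the gene from 250 bases before the annotated transcript start to 50 after it, and they are shown because the levels given afterwards sit on these letters. Capitals mark CpGs with a methylation level in all 27 libraries.
Ddx4, chr13:112652261-112652560, minus strand: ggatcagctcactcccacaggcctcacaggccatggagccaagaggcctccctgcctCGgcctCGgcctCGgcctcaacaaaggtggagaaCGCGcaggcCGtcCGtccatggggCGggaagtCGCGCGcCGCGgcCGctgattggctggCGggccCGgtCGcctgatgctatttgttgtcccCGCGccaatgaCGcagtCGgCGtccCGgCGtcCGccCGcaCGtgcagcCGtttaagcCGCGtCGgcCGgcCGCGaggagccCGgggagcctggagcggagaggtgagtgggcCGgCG
Mael, chr1:166238695-166238994, minus strand: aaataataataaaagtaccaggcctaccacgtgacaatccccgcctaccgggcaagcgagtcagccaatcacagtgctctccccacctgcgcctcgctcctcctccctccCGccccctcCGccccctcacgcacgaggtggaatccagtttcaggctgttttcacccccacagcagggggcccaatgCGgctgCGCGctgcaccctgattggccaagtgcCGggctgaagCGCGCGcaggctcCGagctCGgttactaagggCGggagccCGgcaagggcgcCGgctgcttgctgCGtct
Sycp3, chr10:88459337-88459636, plus strand: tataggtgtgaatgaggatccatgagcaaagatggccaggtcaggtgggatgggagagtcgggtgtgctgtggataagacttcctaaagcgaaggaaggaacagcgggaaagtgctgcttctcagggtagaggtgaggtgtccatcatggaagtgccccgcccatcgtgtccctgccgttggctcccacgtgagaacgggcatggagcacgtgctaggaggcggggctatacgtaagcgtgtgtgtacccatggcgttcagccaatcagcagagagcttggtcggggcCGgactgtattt
Dazl, chr17:50293571-50293870, minus strand: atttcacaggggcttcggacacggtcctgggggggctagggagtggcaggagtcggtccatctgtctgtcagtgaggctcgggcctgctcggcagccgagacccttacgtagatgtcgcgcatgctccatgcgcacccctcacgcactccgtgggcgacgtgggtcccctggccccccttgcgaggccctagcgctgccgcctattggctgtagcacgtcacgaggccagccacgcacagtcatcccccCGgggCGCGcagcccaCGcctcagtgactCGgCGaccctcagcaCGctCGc
Rpl10l, chr12:66284352-66284651, minus strand: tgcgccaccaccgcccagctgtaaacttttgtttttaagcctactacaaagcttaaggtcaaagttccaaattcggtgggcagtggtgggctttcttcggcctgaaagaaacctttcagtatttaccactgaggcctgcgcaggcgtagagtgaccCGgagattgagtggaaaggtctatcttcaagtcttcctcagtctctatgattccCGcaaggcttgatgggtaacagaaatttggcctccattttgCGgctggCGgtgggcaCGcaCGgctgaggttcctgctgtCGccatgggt
The 8 promoters held between 10 CpGs (Sycp2) and 38 CpGs (Ddx4), against a median of 7 over all 27025 promoters of the table. Measured were 37 of 38 CpGs in Ddx4, 15 of 24 in Mael, 8 of 28 in Dazl, 7 of 13 in Rpl10l and 1 of 15 in Sycp3. The promoters of Tdrd1, Tex19.1 and Sycp2 had no CpG measured in every library, so their levels came from positions further into the gene or upstream of it. The annotated transcript start of Ddx4 lies 323 bp inside the annotated gene start, that of Sycp2 118 bp inside and the first of Tdrd1 38 bp inside, and it equals the gene start in the other 5.

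The table held 937644 positions, of which 871894 (93.0%) had a value in every library, and the mean level of a library over these lay between 11.4% and 12.7%. The number of reads behind a level is unknown, so no counting error can be given and every SD below is the spread between libraries. A level is an average over all cells and both alleles of a culture, so fewer methylated cells and fewer methylated alleles per cell cannot be told apart. As a check of the cell type, the starts of the muscle genes Des and Acta1 stood at 12.2% ± 2.66 and 12.4% ± 4.09, whereas that of Myog, a muscle transcription factor, stood at 83.9% ± 3.43 (SD, n = 27), and the start of Myod1 was not measured. Methylation at these genes does not by itself identify the cells.

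The windows of the 8 genes held 524 positions, of which 475 had a value in every library. They formed 342 CpG sites, since the cytosines of both strands of a CpG are listed 1 bp apart. The 149 pairs of positions 1 bp apart differed by 0.101 points on average, and some of these pairs join neighbouring CpGs. With gaps of at most 200 bp, they fell into 12 runs. Levels of neighbouring positions share information in this table, so sites of a run are not independent measurements. Apart from a run far upstream of Tdrd1, every run lay within 878 bp of a gene start. Gene bodies and gene ends beyond that were not covered, the short Rpl10l excepted, and the level of most of each gene is therefore unknown.

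All 4 transposon-silencing genes were heavily methylated at their starts (from 1000 bp before the gene start to 500 bp after it). The start of Ddx4 stood at 84.6% in the lowest library (18 h, replicate 2), 93.2% in the median and 99.3% in the highest (36 h, replicate 1), with a mean of 93.0% ± 3.46 (SD, n = 27). Its 38 sites lay at +130 to +405 of the gene start (chr13:112652228-112652503, around the annotated transcript start). All of them were at 80% or more, between 84.7% at +130 and 95.9% at +210. The start of Tdrd1 stood at 87.1% in the lowest library, 92.4% in the median and 100% in the highest, with a mean of 92.9% ± 3.76. Its 13 sites lay at +213 to +382 (chr19:56826384-56826553), and all were at 80% or more. No library took either gene below 80%.

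Mael was measured across its start, at -140 to +307 (chr1:166238437-166238884). Its start stood at 84.5% in the lowest library (30 h, replicate 2), 93.9% in the median and 96.7% in the highest, with a mean of 92.5% ± 3.30. Within the run the level climbed with distance into the gene, from 64.5% at -131, the lowest of its 37 sites, to 97.2% at +148, the highest. Tex19.1 was measured at +66 to +295 (chr11:121146209-121146438) and was the lowest of the transposon-silencing genes. Its start stood at 72.7% in the lowest library (12 h, replicate 1), 88.0% in the median and 93.8% in the highest, with a mean of 86.7% ± 4.50. It was below 80% in 3 of 27 libraries, and its 12 sites lay between 65.7% at +295 and 94.3% at +214.

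The axis genes were methylated past their starts as well, whereas a short run upstream of Sycp2 was low and varied widely between libraries. The start of Sycp3 stood at 78.9% in the lowest library (12 h, replicate 3), 89.6% in the median and 95.1% in the highest, with a mean of 88.8% ± 3.63. Its run covered +38 to +641 (chr10:88459625-88460228) with a dip to 66.7% at +329 between 97.0% at +38 and an average of 93.1% ± 3.12 from +400 to +499. The start of Sycp2 stood at 59.9% in the lowest library, 70.1% in the median and 82.6% in the highest, with a mean of 69.7% ± 5.92. That mean joins a pair of runs of unlike level. The run past the start, +228 to +626 (chr2:178407150-178407548), stood at 84.6% ± 4.62 with 75.9% in the lowest library, 84.4% in the median and 94.3% in the highest. The run at -593 to -547 (chr2:178408323-178408369), with only 5 sites, stood at 21.0% ± 20.1, with 0% in the lowest library, 22.1% in the median and 74.1% in the highest. It was at exactly 0% in 8 libraries and under 10% in 11. Without that run the start of Sycp2 stood at 86.7% ± 3.20, a value computed after the levels were seen.

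Dazl carried the run with the most sites. Its start stood at 87.0% in the lowest library (60 h, replicate 1), 91.6% in the median and 95.9% in the highest, with a mean of 91.2% ± 2.16. A short run upstream, at -589 to -492 (chr17:50294112-50294209), stood at 84.8% ± 7.14. The run from -1 to +878 (chr17:50292742-50293621) held 83 sites and crossed from methylated to largely unmethylated DNA inside the gene. Its highest site was 96.2% at +44, the last site at 80% or more lay at +472, the first under 50% at +728, and the last, at +878, stood at 19.5%. In steps of 100 bp the mean was 95.8% ± 2.20 from the start to +99 and 86.2% ± 5.33 from +400 to +499. It was 64.6% ± 12.3 from +600 to +699 and 22.9% ± 5.73 from +800 to +899. Rpl10l stood at 59.8% in the lowest library (18 h, replicate 1), 69.1% in the median and 78.3% in the highest, with a mean of 69.4% ± 4.22, and no library reached 80%. Its run around the start, -94 to +58 (chr12:66284343-66284495), stood at 71.3% ± 5.51, and its run at +382 to +524 (chr12:66283877-66284019) at 65.7% ± 6.41. Rpl10l and Rpl10 are similar in sequence, and no source used here says how the authors treated reads that map to both.

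**Figure D1:**
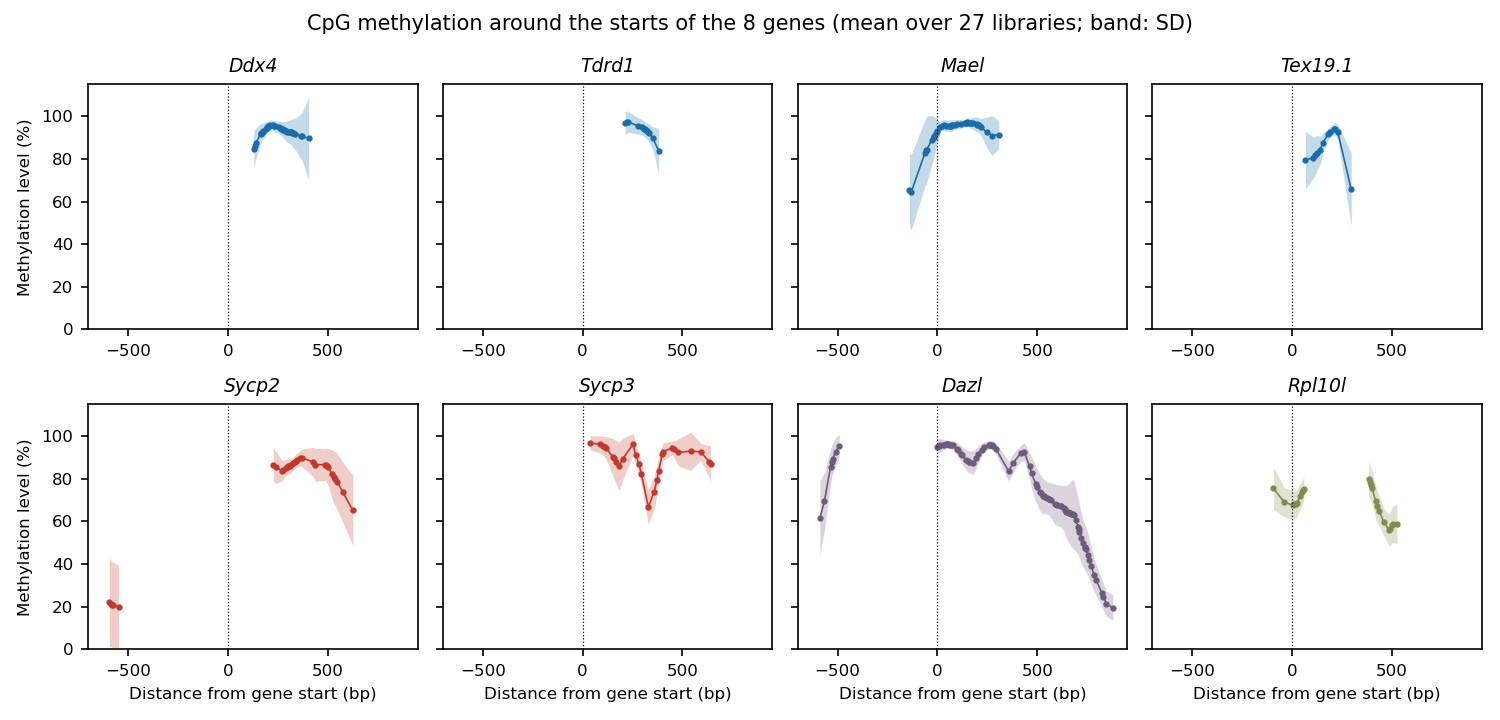
Methylation level (%, y axis) of each measured CpG site against its distance from the gene start (bp along the gene, x axis) for the 8 genes. Points are means over 27 libraries and bands are SDs, which can pass 100%. Levels stay high past the starts of Ddx4 and Tdrd1, climb across the start of Mael, lie near 21.0% upstream of Sycp2, and drop to 19.5% inside Dazl. The run far upstream of Tdrd1 lies outside the axis.

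In rank, Ddx4, Tdrd1, Mael, Dazl, Sycp3 and Tex19.1 were 41st, 44th, 50th, 63rd, 82nd and 99th of the 10480 measured starts, and Sycp2 and Rpl10l were 293rd and 299th. The median of the 8 was 90.0%, against 3.47% over all measured starts. Of the 8, 6 were at 80% or more and none under 10%. Of all starts, 1.56% were at 80% or more and 71.8% under 10%. Along this order the only gap between neighbours that was larger than the SD of both genes was that between Tex19.1 and Sycp2, 17.0 points, and without the 5 sites upstream of Sycp2 it was 0.0198 points. Averaged over the 8 genes, a library stood at 85.5% ± 1.43, between 82.5% (12 h, replicate 3) and 87.7% (48 h, replicate 3). The same libraries also had the lowest and the highest mean over all positions, 11.4% and 12.7%. The lowest values of the 8 genes fell in 8 different libraries, whereas 48 h replicate 3 held the highest value of 3 of the 8, in 1 of them tied at 100%.

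**Figure D2:**
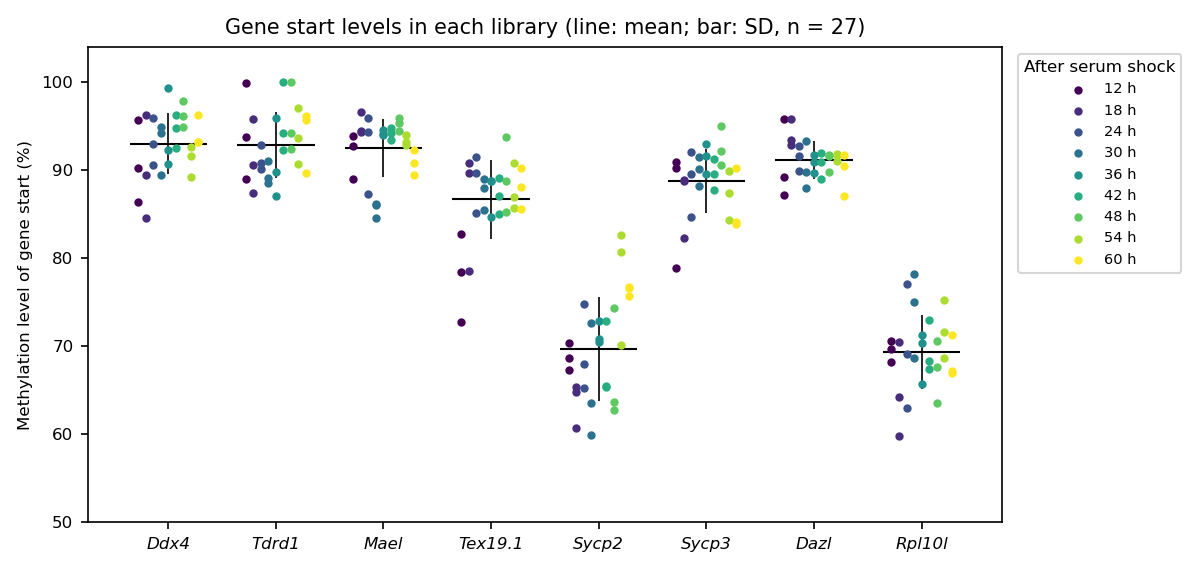
Methylation level of the gene start (%, y axis, drawn from 50%) for the 8 genes (x axis) in each of the 27 libraries, coloured by time after serum shock. Horizontal lines are means and vertical bars SDs. Sycp2 and Rpl10l, with means of 69.7% and 69.4%, lie below the other 6, whose means run between 86.7% and 93.0%; without its 5 upstream sites Sycp2 stands at 86.7%.

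High methylation was rare at the starts of genes with CpG-rich promoters. Promoters with an observed to expected CpG ratio of at least 0.6 and at least 55% G and C numbered 6881 among genes with a measured start. In 45 of these genes (0.654%) the start was at 80% or more. Ddx4, Tdrd1, Mael, Sycp3 and Dazl are 5 of these 45. CpG content was scored on the 300-base promoter and the level on the whole start, so a level need not come from promoter CpGs. In Tdrd1 no promoter CpG had a value in every library, and in Sycp3 1 of 15 did. Of the other 3599 starts, 119 (3.31%) were at 80% or more, Tex19.1 among them. Letters of the 300-base promoters were searched on both strands for CACGTG, the E-box that MGA with MAX can bind, and for TTCCCGC or its reverse complement GCGGGAA, which E2F6 can bind. Both proteins belong to PRC1.6, a Polycomb complex known in mouse embryonic stem cells to repress germ line genes. CACGTG was present in 4 of the 8 promoters, at -29 from the transcript start in Ddx4, -11 in Tdrd1, -223 in Mael and -64 and -43 in Sycp3, and in 7.24% of all 27025. TTCCCGC or GCGGGAA was present in 3, at -136 in Ddx4, -147 in Sycp3 and -44 in Rpl10l, and in 4.66% of all. The CpG inside the motif was measured in Ddx4, at 92.9% ± 4.91 for CACGTG and 94.3% ± 3.11 for GCGGGAA, and in Rpl10l, at 69.0% ± 6.82. Each motif holds a CpG, and these 8 promoters hold 10 to 38 CpGs against a median of 7 over all. The shares over all promoters are therefore not matched for CpG content. A match is a run of letters and not a bound site.

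The nearest genes with a measured start were mostly low, like most starts of the table. Taking 1 on each side gave 16 neighbours with a median of 4.12%, between 1.45% and 72.5%. Of these, 10 were under 10%, where 71.8% of all starts lay. Not all of them are local, since their starts lay between 3972 bp (Ccdc186 and Tdrd1) and 1539670 bp (Satb1 and Dazl) from that of the member. The highest was Fam217b, 5928 bp from the start of Sycp2, at 72.5% ± 6.23, within 1 SD of the 69.7% of Sycp2. Without its 5 upstream sites, however, the start of Sycp2 stood at 86.7% ± 3.20, above Fam217b by more than the SD of either. The next were Mdga2, 938148 bp from the start of Rpl10l (38.6% ± 3.88), and Ildr2, 15316 bp from that of Mael (38.6% ± 9.87). The closest was Ccdc186, whose start lies 3972 bp upstream of that of Tdrd1. There the run at -4341 to -3384 of the Tdrd1 start (chr19:56821830-56822787) averaged 8.13% ± 0.915, with 5.67% in the lowest library, 8.04% in the median and 10.1% in the highest. Along it the level was 1.03% ± 1.11 from -4300 to -4201, 28.2% ± 7.77 from -3700 to -3601 and 81.9% ± 4.83 from -3500 to -3401. Unmethylated DNA at the Ccdc186 start thus gave way to methylated DNA within this run on the side of Tdrd1.

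Inside the same gene, the start was set against the body (from more than 500 bp past the start to more than 500 bp before the end) within each library. This was possible in Dazl, Sycp3 and Sycp2, and here body means its first measured bases only. Over the 5337 genes with both parts, 21% had a higher and 50% a lower start at an adjusted p under 0.05, by limma with Benjamini-Hochberg adjustment over all of them. The start of Dazl stood at 91.2%, against 57.1% in its body. The start was 34.0 points (SE 1.45) higher, in 27 of 27 libraries (limma adjusted p = 3.55e-19), which ranks 86th of 5337. The start of Sycp2 stood at 69.7%, against 78.0% in its body, a difference of -8.26 points (SE 1.78; limma adjusted p = 0.000144), lower, in 24 of 27 libraries. Without the run upstream of Sycp2, an alternative added after seeing the data, its start stood at 86.7% and was 8.68 points higher than the body (limma adjusted p = 3.26e-05). With positions summarised by their median it was 4.72 points higher (limma adjusted p = 0.0462), and with values required in only 24 libraries 0.318 points higher (limma adjusted p = 0.879). The start of Sycp3 stood at 88.8%, against 90.7% in its body, a difference of -1.90 points (SE 1.04; limma adjusted p = 0.103), lower in 19 of 27 libraries. Without 18 h replicate 2 that difference was -2.27 points (limma adjusted p = 0.0491), and without 48 h replicate 3 it was -2.36 points (limma adjusted p = 0.0330). With a start from 500 bp before to 200 bp after the gene start, the body also began past +200 and took in the dip at +329. The start of Sycp3 was then 5.34 points higher than this longer body (limma adjusted p = 0.00101). Its direction thus depends on where the parts are cut and is not settled.

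The transposon-silencing genes were next compared with the axis genes. The starts of Ddx4, Tdrd1, Mael and Tex19.1 averaged 91.3% ± 1.99, between 86.7% and 95.8%, against 79.3% ± 3.04, between 73.8% and 84.1%, for Sycp2 and Sycp3 (SD, n = 27). The difference of 12.0 ± 3.18 points had the same sign in 27 of 27 libraries, and the ranges did not overlap. With the narrower start, where Tdrd1 and Sycp2 have no value, the difference was -2.31 points and positive in only 6 of 27 libraries. Without the 5 sites upstream of Sycp2 the axis genes averaged 87.7% ± 1.83, the difference was 3.56 ± 2.41 points, and the sign held in 25 of 27 libraries. Against Sycp3 alone it was 2.51 ± 3.41 points, higher in 21 of 27. The genes are 4 and 2 in number and are not replicates of a class, so the class difference carries no p.

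Taken pair by pair over libraries (two-sided permutation test with 100000 sign flips, adjusted over 8 pairs), Ddx4, Tdrd1, Mael and Tex19.1 were higher than Sycp2 by 23.3, 23.2, 22.8 and 17.0 points. Each was higher in 27 of 27 libraries, with a permutation p of 1e-05, the smallest these flips can give, and an adjusted p of 2e-05. Without the upstream sites of Sycp2 these differences became 6.36, 6.22, 5.87 and 0.0198 points, and the last no longer passed (permutation adjusted p = 0.99). Against Sycp3, Ddx4 was higher by 4.25 points (24 of 27 libraries, permutation adjusted p = 4.8e-05), Tdrd1 by 4.11 points (22 of 27, permutation adjusted p = 0.00023) and Mael by 3.76 points (22 of 27, permutation adjusted p = 0.0005). With medians over positions Ddx4 was 1.73 points (permutation adjusted p = 0.057) and Tdrd1 1.52 points (permutation adjusted p = 0.17) above Sycp3, so both calls were lost. Tex19.1 was lower than Sycp3 by 2.09 points, in 19 of 27 libraries (permutation adjusted p = 0.027), a call that ended when 12 h replicate 1, 12 h replicate 2, 18 h replicate 1 or 36 h replicate 1 was left out (permutation adjusted p of 0.055, 0.05, 0.054 and 0.052). It also ended with values required in only 24 libraries (-0.151 points, permutation adjusted p = 0.87). With the narrower start, Tex19.1 minus Sycp3 was -6.54 points (permutation adjusted p = 6e-05), Ddx4 minus Sycp3 was -0.778 points and Mael minus Sycp3 0.373 points (permutation adjusted p = 0.79 for each).

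Other genes of the same pathways ranged far more widely than these 8, and none of the lists was chosen without knowledge of earlier results. Of 26 further genes of transposon silencing and the piRNA pathway, 18 were matched by name to an annotated gene, and 8 of those had a measured start. Their median was 53.6%. Among them, 5 were at 50% or more, 1 was under 10% and none was at 80% or more. The highest were the helicase Tdrd9 (77.4% ± 9.25), the piRNA helicase Mov10l1 (74.9% ± 15.0) and Asz1 (70.3% ± 2.43), and the lowest Pld6 (31.2% ± 9.35), Fkbp6 (28.0% ± 6.82) and Exd1 (4.24% ± 1.18). Of 33 further genes of the meiotic axis, the synaptonemal complex and recombination, 27 were matched and 14 measured, with a median of 52.4%. Of these, 5 were at 80% or more, 8 at 50% or more and 2 under 10%. Msh4, a mismatch repair protein of meiotic crossovers, stood at 97.2% ± 1.94, above each of the 8, followed by the synaptonemal protein Sycp1 (88.2% ± 5.53) and Meioc (86.2% ± 4.45). The lowest were Rec114 (11.6% ± 2.24), the histone methyltransferase Prdm9 (5.88% ± 3.06) and Brme1, listed as 4930432K21Rik (3.83% ± 2.33).

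Relatives of Dazl and Rpl10l varied as much. Of 11 germ cell RNA regulators, 9 were matched and 4 measured. These were Boll, of the Dazl family, at 78.3% ± 3.30, Zar1 at 72.4% ± 5.16, Ddx25 at 25.3% ± 4.66 and Ybx2 at 22.0% ± 2.03. Of 9 germ cell forms of widely used genes, 8 were matched and 5 measured. Slc25a31, the germ cell ADP/ATP carrier, stood at 88.2% ± 2.03 and Rpl39l at 74.0% ± 2.73, whereas Hspa2 (3.42% ± 4.11), Cstf2t (2.77% ± 1.37) and Utp14b (1.57% ± 0.940) stood near the median of all starts. The somatic counterparts on autosomes had a median of 3.17% over 8 genes, with 7 under 10% and Ldha high. Those on the X chromosome had a median of 32.2% over 8 genes, against 33.0% over all 325 X-linked starts, with Ddx3x low at 2.65% ± 2.34. Rpl10, the X-linked parent of Rpl10l, stood at 30.6% ± 13.1. The highest of these counterparts were the autosomal Ldha (85.7% ± 6.71) and the X-linked Smc1a (39.6% ± 9.61) and Slc25a5 (37.7% ± 8.43), and the lowest Ddx5 (2.43% ± 3.32), Slc25a4 (1.72% ± 1.39) and Smc3 (1.37% ± 0.868). Of the 12 genes listed for PRC1.6, 11 were matched and 9 measured, all of these under 10%. At the top were E2f6 (8.93% ± 1.68), Rnf2 (5.08% ± 4.73) and Max (3.68% ± 1.52). At the bottom were Cbx3 (1.98% ± 1.06), Hdac2 (1.21% ± 0.753) and Wdr5 (0.766% ± 0.747).

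**Figure D3:**
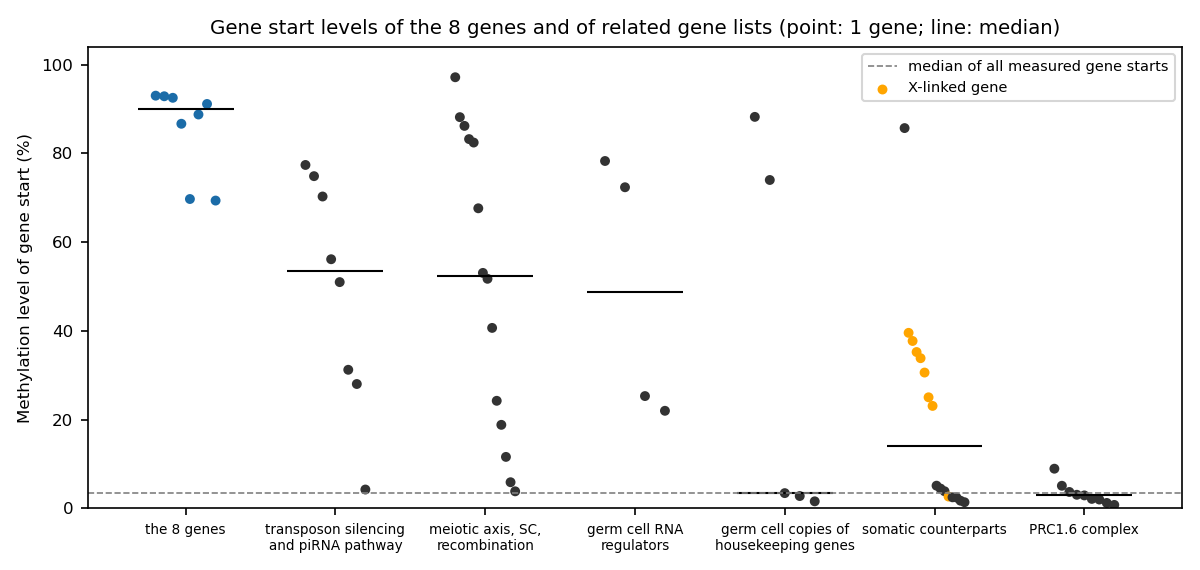
Mean methylation level of the gene start over 27 libraries (%, y axis) for the 8 genes and for 6 lists of related genes (x axis). Each point is 1 gene, solid lines are list medians, the dashed line is the median of all measured starts (3.47%) and orange points are X-linked genes. The 8 genes lie between 69.4% and 93.0%, whereas the piRNA and meiosis lists span most of the scale and the PRC1.6 genes lie under 10%.

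The time course asked whether these levels moved after the serum shock. At an adjusted p under 0.05 over all 18447 runs of the table, limma called 0 of the 12 runs for a 24 h rhythm, for any difference between time points, for a linear trend or for 60 h against 12 h. The smallest adjusted p of the 12 was 0.980 for the rhythm, 0.404 for time points, 0.913 for the trend and 0.769 for 60 h against 12 h. Over all runs the same tests called 0%, 0.00542%, 0% and 0%. At an unadjusted p under 0.05, limma called 2, 3, 2 and 2 of the 12 runs, against 4.34%, 4.3%, 4.99% and 5.33% of all runs. No run of any gene named above was called, since the single called run, for time points, lies elsewhere on chromosome 7. The upper 95% limit of the 24 h amplitude was under 10 points in 11 of the 12 runs and 25.3 points in the run upstream of Sycp2.

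Mael had the smallest time-point p of the 12, ranking 9th of 18447 runs (limma unadjusted p = 0.000197, adjusted p = 0.404). At 30 h its replicates stood at 86.2%, 84.5% and 86.1%, all below the other 24 libraries, which lay between 87.3% and 96.7% with a median of 94.1%. The next lowest library was 24 h replicate 3, at 87.3%, beside 94.3% and 95.9% for its replicates. Without that library the time-point test called Mael (limma adjusted p = 0.0118), so the call depends on a single library. The run of Mael was also cut into stretches that were not set in advance. The low values lay mainly before the gene start. There the 10 sites from -140 averaged 66.2% ± 9.40 at 30 h (SD, n = 3), between 57.3% and 76.0%. The other libraries had a median of 88.4% there, between 62.6% and 94.4%, so the values overlapped. The 21 sites of the first 200 bases averaged 93.9% ± 3.24 at 30 h, against a median of 96.5%. The 6 sites from +200 averaged 90.7% ± 5.13, against a median of 94.5%. For a 24 h rhythm its amplitude was 2.68 points (SE 0.809; limma unadjusted p = 0.00974). The run around the start of Rpl10l had an amplitude of 3.84 points (SE 1.40; limma unadjusted p = 0.0292).

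The run upstream of Sycp2 had the second largest slope among all 18447 runs, 37.0 points per 48 h (SE 9.44; limma unadjusted p = 0.000566, adjusted p = 0.913). Its means were 7.38%, 5.19%, 21.3%, 6.87%, 25.3%, 11.9%, 15.9%, 53.1% and 42.1% in order of time. At 54 h its replicates stood at 74.1%, 59.8% and 25.5%, and at 60 h at 42.3%, 44.8% and 39.3%. The 21 earlier libraries lay between 0% and 38.2% with a median of 9.56%, and 4 of them were above the lowest of the 6 late ones, so the groups overlapped. At 60 h it stood at 42.1% ± 2.76, against 7.38% ± 12.8 at 12 h (SD, n = 3 each), a difference of 34.8 points (SE 11.3; limma unadjusted p = 0.00622, adjusted p = 0.876). The run past the start of Sycp2 had a slope of 0.96 points per 48 h (SE 2.73; limma unadjusted p = 0.727).

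Tex19.1 was low at 12 h, with replicates at 72.7%, 82.8% and 78.4%, against 78.6% in the lowest, 88.4% in the median and 93.8% in the highest of the other 24 libraries, so the values overlapped. At 60 h it stood at 88.0% ± 2.30, against 78.0% ± 5.06 at 12 h (SD, n = 3 each), a difference of 10.0 points (SE 2.97; limma unadjusted p = 0.00308, adjusted p = 0.769). The run of Tex19.1 was also cut into stretches that were not set in advance. The 6 sites at +66 to +152 averaged 85.2% ± 2.76 at 60 h and 65.3% ± 7.21 at 12 h. The last site, at +295, stood at 66.3% at 60 h and 56.3% at 12 h, a difference smaller than the SD of either time point, and the 5 sites between averaged 92.5% ± 2.40 at 12 h, against a median of 93.3% over the later libraries. In the other 10 runs the slope lay between -2.00 and 4.93 points per 48 h and the difference of 60 h and 12 h between -2.97 and 3.46 points, and none had an unadjusted p under 0.05 in either test (smallest limma unadjusted p of 0.100 and 0.220).

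**Figure D4:**
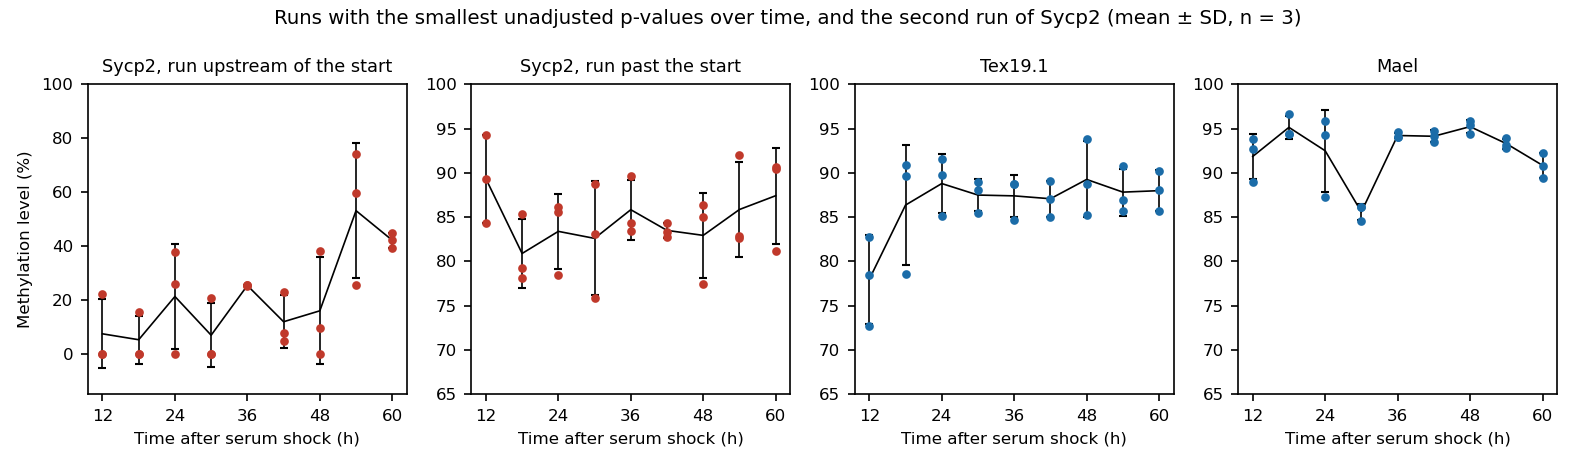
Methylation level (%, y axes, with different ranges) against time after serum shock (h, x axes) for both runs of Sycp2 and for the runs of Tex19.1 and Mael. Points are libraries, lines join means and bars are SDs (n = 3). The run upstream of Sycp2 is highest at 54 and 60 h, Tex19.1 is lowest at 12 h and Mael at 30 h, and none of these passed adjustment over all 18447 runs.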

How the data were processed

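The authors deposited a table of methylation levels, given as a fraction from 0 to 1 per position and library (per the file headers and values). It was multiplied to percent, and differences are in points. The submitters' processing notes name Bowtie2, Bismark 0.14.4, cutadapt 1.9.1 and Trim Galore 0.4.0 with build mm10, and the sources used here give no settings. Per the labels' protocols, DNA was digested with an enzyme written as MpsI, bisulfite converted and amplified. The levels come without coverage, so depth is unknown and nothing was weighted by it. The labels do not say whether replicates came from separate cultures, so a p-value measures only how these samples vary, which may be technical variation.

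Positions lacking a value in any library were dropped. Against RefSeq promoters, 99.6% of the 198915 positions that could be checked fell on a CpG when counted from 1. Gene coordinates came from RefSeq (GRCm38.p6) and strand from its promoter table. Starts and bodies needed at least 3 positions, and runs had gaps of at most 200 bp. The members and the gene lists were chosen with earlier results of these data known. The genes named are all 8 members and, of each list, the 3 highest and the 3 lowest starts; neighbouring genes were added for their position, Boll and Rpl10 are also described as relatives, and Ddx3x was named after its value was seen. Time tests and start against body ran on percent levels in R 4.3.3 by limma 3.58.1, the tables being read by the data.table package, version 1.17.8, two-sided, with 27 libraries sharing 1 estimate of the spread and Benjamini-Hochberg adjustment over all runs or genes. Gene pairs used sign-flip permutations. The model was tested on simulated data with known changes. Other steps used numpy 2.4.6, scipy 1.17.1, pandas 2.3.3 and matplotlib 3.10.9 in Python 3.11.15. The alternatives tried were a narrower start, values in at least 24 libraries, medians over positions, averaged strand pairs, gaps of 100 bp, at least 10 positions, a logit scale, the library mean as covariate, a replicate block and leaving out each library.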

Additional observations from a re-analysis of the deposited data

How the results depend on the processing

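The median of the 8 starts within a library averaged 89.3%, between 89.1% and 89.5% with 1 library left out, and 91.3% with medians over positions. The transposon-silencing genes minus the axis genes gave 12.0 points, between 11.8 and 12.2 with 1 library left out, 4.35 with medians over positions and 3.56 without the run upstream of Sycp2, an alternative added after seeing the data. With the narrower start it was -2.31 points, higher in 6 of 27 libraries; Tdrd1 and Sycp2 then have no start value, so fewer genes enter, and Ddx4 minus Sycp3 was -0.778 points. Start minus body passed in 2 members, in 1 with values in at least 24 libraries, and in 2 to 3 with 1 library left out. For Sycp3 it was 5.34 points with the narrower start, past the threshold (limma adjusted p = 0.00101). There the body also began past +200, so both parts differed from the main setting, and the cause was not tested. For Sycp2 it was 0.318 points with values in at least 24 libraries, 4.72 points with medians over positions and 8.68 points without its upstream run, also added after seeing the data. The time-point test called 0 to 1 of the 12 runs with 1 library left out, the 1 being Mael without 24 h replicate 3, and the other time tests called 0 under every alternative run. The deviations of same-numbered libraries had correlations between -0.0434 and 0.0378 over 108 pairs. Those of libraries with other numbers lay between -0.0436 and 0.0388 over 216 pairs. No pairing by number was visible in this measure, which cannot show whether same-numbered libraries shared a culture. With a replicate block each of the 4 time tests called 0 runs (smallest limma adjusted p of 0.978, 0.571, 0.973 and 0.640) and start minus body, where the block was added after seeing the data, passed in 2 members, so no call changed. The run upstream of Sycp2 has no value where at least 10 positions are required. Missing coverage limits every level here: a 0% or 100% may rest on few reads.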

Other observations

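Positions without a value in every library add a few levels near the starts. Before the start of Tex19.1, 5 positions at -269 to -222 had values in 24 libraries, between 87.9% and 100% with a median of 100% and a mean of 97.1% ± 3.97 (SD, n = 24). Before the start of Mael, 4 positions at -202 to -156 had values in 26 libraries and averaged 79.1% ± 10.6 (SD, n = 26), between 53.8% and 97.7%. In Tdrd1, 6 positions at +102 to +186 had values in 23 to 25 libraries, with a median of 97.7% and a lowest value of 29.5%. Upstream of Dazl, 2 positions at -618 and -609 averaged 52.4% ± 21.5 over 26 libraries, between 7.72% and 100%. These values stand next to the runs described above and entered no comparison in the main setting. Those present in at least 24 libraries did enter the alternative with that requirement. There the start of Tex19.1 stood at 88.6%, that of Mael at 91.6% and that of Dazl at 90.0%.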
